A study of Mus musculus with 135 samples.

Results

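The Obox gene models that carry a cluster letter and a running number, but no Obox gene number, are the subject here. They are the rows named OboxA, OboxB, OboxC or OboxD followed by digits alone, and they were taken by that pattern of the name in each of 7 deposited expression tables. Of 24116 gene names in each table, 66 were Obox genes and 58 of these were such copies, while 8 carried an Obox number (Obox1 to Obox8). Cluster A had 7 copies (OboxA5, OboxA7 to OboxA11 and OboxA13), cluster B had 25, cluster D had 26 and cluster C had 0, because its single row is Obox8. RNA was measured in 107 libraries of mouse oocytes, embryos and embryonic stem cells, in FPKM, which are fragments scaled to transcript length and to the mapped fragments of the library.

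Obox genes encode homeodomain transcription factors of the paired-like group and lie in tandem arrays in the mouse. The numbered genes are known for transcripts in oocytes and in the first cleavage stages. The family is known for its part in zygotic genome activation, the start of transcription from the embryo's own genome. Tandem arrays of this kind hold duplicated genes and pseudogenes of very similar sequence, so that a short read can fit several copies.

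The oocytes were full-grown oocytes (FGO) and metaphase II eggs (MII), Obox KO and wild type, in 2 libraries per group. The embryos were Obox mzKO and wild type, mzKO being the field's short form for a maternal and zygotic knockout, at the early 2-cell (E2C, 2 libraries each), late 2-cell (L2C, 3 each) and 4-cell time (4C, 3 each). The mzKO embryos of the last group were collected when controls were at the 4-cell stage. Wild-type blastocysts had 2 libraries, and the mzKO libraries titled for that time (mzKO_BL, 2 libraries) were labelled arrested 2-cell embryos. There was 1 library each of mzKO embryos titled Obox157OE and Obox3OE, labelled blastocysts, and Obox4OE, labelled arrested 2-cell embryos. Obox mKO (short for a maternal knockout) late 2-cell embryos were set against their own wild-type controls (2 libraries each), with 1 blastocyst library of each kind. Embryos of genotype Obox-- (3 E2C and 4 L2C libraries) were set against Obox+- embryos (3 of each). Wild-type parthenotes, embryos developing from an activated egg without sperm, came from oocytes injected with siRNA labelled siObox12mix, siObox5 or siObox7 (2 libraries each) or with control siRNA (3). The parthenote libraries were titled L2C. Wild-type zygotes were injected with siRNA against Obox4, Obox6 or Obox8 (2 each), Obox3 (1) or control siRNA. Wild-type mESC, mouse embryonic stem cells, overexpressed (OE) Obox3 or Obox5 (4 libraries each) or GFP (5). A further set was Nr5a2 KO or wild-type mESC, each with Obox3, Obox5 or GFP (2 each), Nr5a2 being a nuclear receptor gene. Wild-type embryos injected with Obox1, Obox2, Obox3 or Obox5 mRNA or with H2O had 1 library per group and stage. The Obox-- and Obox+- libraries form a set headed single embryo. For the other oocyte and embryo libraries the labels do not say how many oocytes or embryos went into each. They also do not say whether replicates were collected apart, or which copies the knockout allele lacks, so p-values measure the spread between these libraries.

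Marker lists were read in the groups they describe. A list of oocyte genes summed to 5135 to 7639 FPKM in wild-type FGO, a 2-cell list to 442 to 996 FPKM in wild-type E2C, a trophectoderm list to 2592 to 4042 FPKM in wild-type blastocysts and a pluripotency list to 455 to 803 FPKM in GFP mESC. A list of cumulus cell genes, the follicle cells around the oocyte, did not exceed 2.98 FPKM in FGO. The knockout could be seen in the numbered genes, since Obox5 was at 0 and 1.02 FPKM in Obox KO FGO and at 2229 and 2027 FPKM in wild-type FGO. Obox6 remained in the mzKO embryos at 87.4, 59.3 and 62.9 FPKM at L2C, against 471, 221 and 219 FPKM in wild type. The libraries ranged from 7890 to 17743 genes above 0, and the ribosomal transcript Rn45s took 0.114% to 71.5% of summed FPKM. Both of the outlying values belong to the libraries labelled mzKO_BL, replicate 1 with the fewest genes and replicate 2 with the largest Rn45s share. Replicate 1 also had Obox3 at 59.7 FPKM, which goes against its label, and the fibroblast gene Col1a1 at 31.7 FPKM. Among mESC libraries without added Obox3, GFP replicate 1 had 37.2 FPKM and Obox5 OE replicate 1 had 99.5 FPKM of Obox3, so these are called the libraries labelled GFP and Obox5 OE below.

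None of the 58 copy names was found in the RefSeq tables for GRCm38.p6, which list 53 Obox entries, 47 of them pseudogenes. Of the pseudogenes, 38 were named after Obox4 and 8 after Obox3, and 32 lay between Obox7 and Obox2. As the copies have no sequence there, the promoter windows of 2 numbered cluster A genes are shown, because they make plain how alike neighbouring Obox genes are. Each window runs from 250 bases before to 50 bases after the annotated start, and the capitals mark the longest stretch that both share letter for letter, 70 bases at positions 227 to 296 of the Obox1 window (chr7:15547007-15547306, plus strand) and 216 to 285 of the Obox3 window (chr7:15639728-15640027, minus strand).
Obox1: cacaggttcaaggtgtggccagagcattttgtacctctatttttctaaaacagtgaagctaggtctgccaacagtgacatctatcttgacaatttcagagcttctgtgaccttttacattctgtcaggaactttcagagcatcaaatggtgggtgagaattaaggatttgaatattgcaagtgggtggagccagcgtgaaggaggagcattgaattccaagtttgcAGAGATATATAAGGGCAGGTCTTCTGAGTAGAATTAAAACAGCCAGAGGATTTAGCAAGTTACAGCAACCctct
Obox3: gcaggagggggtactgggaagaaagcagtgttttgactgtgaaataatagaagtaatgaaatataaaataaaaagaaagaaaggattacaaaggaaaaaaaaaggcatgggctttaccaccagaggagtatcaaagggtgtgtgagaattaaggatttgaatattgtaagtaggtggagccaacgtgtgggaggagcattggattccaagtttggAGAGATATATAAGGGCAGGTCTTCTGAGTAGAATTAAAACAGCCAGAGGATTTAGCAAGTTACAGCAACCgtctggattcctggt
The shared stretch crosses the annotated start and runs into the first transcribed bases of both genes. A read that lies inside such a stretch cannot be given to one gene rather than the other by its letters alone.

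The values themselves showed the same limit among cluster D copies. OboxD9, OboxD10, OboxD11 and OboxD12 had identical FPKM in all 83 libraries in which any of them was above 0. The level of a single copy is therefore uncertain wherever the authors' counting shared or split reads, and values below are best read by letter. Less RNA per cell and fewer cells of a kind also cannot be told apart in these bulk libraries.

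All 58 copies were above 0 in at least 1 library, but the letters differed in how far they rose above it. Each of the 7 A copies reached 1 FPKM in some library and 6 of them reached 10 FPKM. Of the 25 B copies 16 never reached 1 FPKM, and only OboxB2 reached 10 FPKM. Of the 26 D copies only OboxD25 stayed below 1 FPKM, and 24 reached 10 FPKM. The highest single values were 786 FPKM for an A copy (OboxA7), 249 FPKM for a D copy (OboxD5) and 49.0 FPKM for a B copy (OboxB2), all in siRNA-injected parthenotes. Averaged over the 14 untreated wild-type libraries, OboxA7 led cluster A at 44.5 FPKM, before OboxA5 at 33.5 and OboxA10 at 30.0. In FGO alone OboxA10 and OboxA11 had higher means than OboxA7, at 22.9 and 18.0 against 16.5 FPKM. OboxB2 led cluster B at 5.41 FPKM, before OboxB21 at 0.819, and OboxD5 led cluster D at 20.1 FPKM, before OboxD9 at 18.3.

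**Figure D1:**
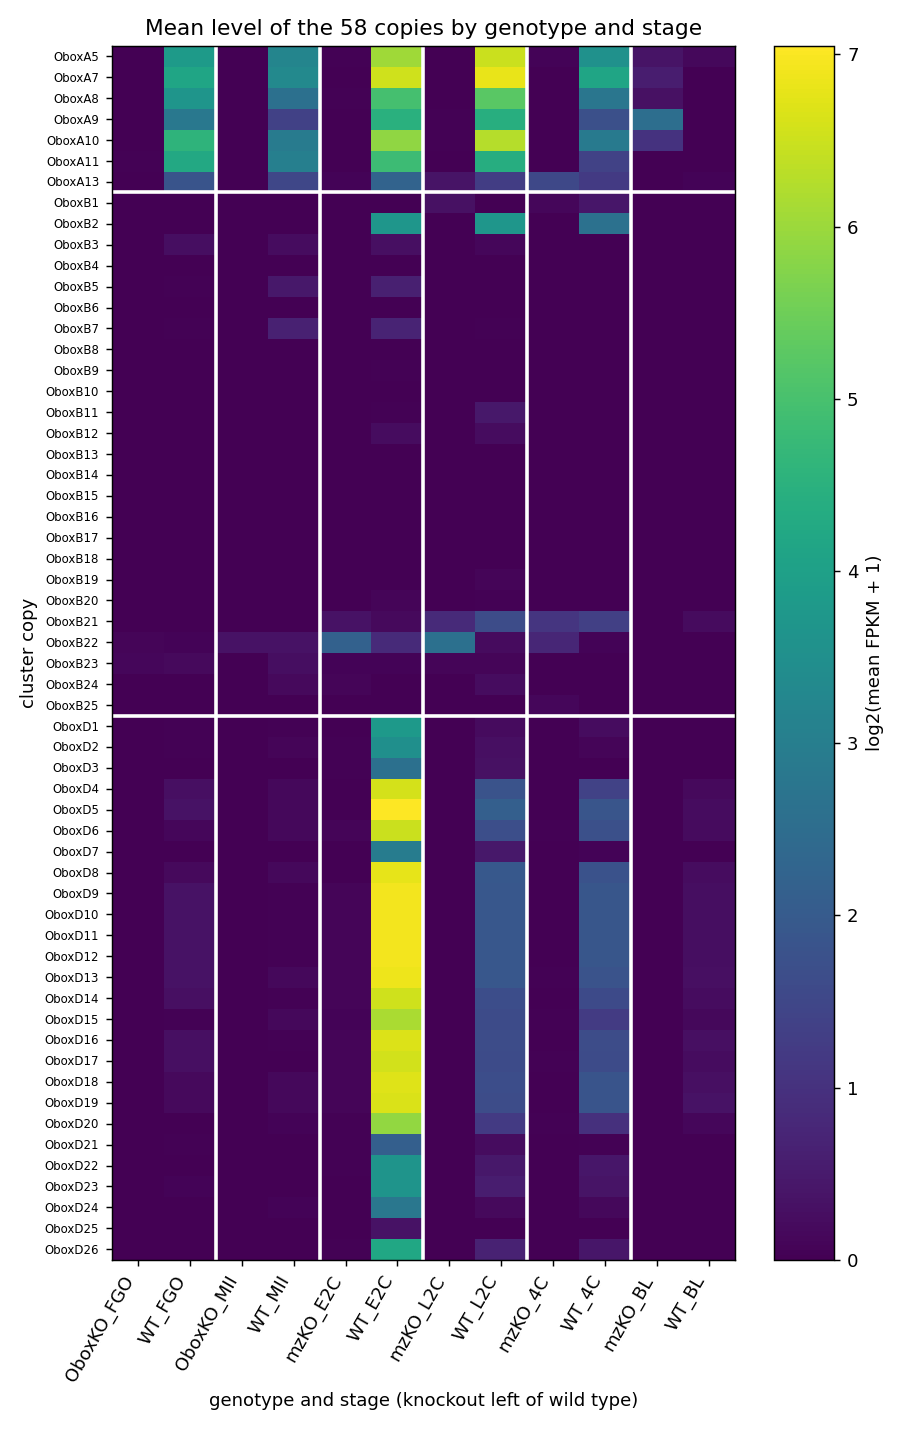
Mean level of each of the 58 copies, as log2(mean FPKM + 1) by colour, with copies in rows and genotype and stage in columns, each knockout group left of its wild type and white lines between letters and stages. In wild type the A copies are bright from FGO to 4C with a peak at the 2-cell stages, most D copies are bright at E2C alone, and cluster B is dark apart from OboxB2 and OboxB21, while the knockout columns are dark for nearly all A and D copies and bright for OboxB22 in mzKO.

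In wild type, A copies were present in oocytes and highest in 2-cell embryos. OboxA7 had 8.88 and 24.2 FPKM in FGO, 9.67 and 8.35 FPKM in MII, 48.2 and 137 FPKM at E2C, 93.4, 118 and 124 FPKM at L2C, and 21.2, 11.3 and 18.0 FPKM at 4C. It was listed at 0 in both wild-type blastocysts. OboxA10 followed a like course, with 8.93 and 36.8 FPKM in FGO, 7.31 and 6.03 FPKM in MII, 37.1 and 78.2 FPKM at E2C, 89.9, 72.3 and 63.4 FPKM at L2C, and 7.71, 3.53 and 8.15 FPKM at 4C. The 2-cell libraries of both copies lay above every oocyte and 4C library of the same copy. OboxA13 was the low member of the letter, at 1.47 and 3.65 FPKM in FGO, 0.914 and 6.63 FPKM at E2C and 1.61, 1.36 and 1.27 FPKM at L2C. OboxA5, OboxA7, OboxA8 and OboxA10 had their highest mean at L2C, and OboxA9, OboxA11 and OboxA13 at E2C. The order of the 2-cell stages depended on scaling, since summed A copies averaged 298 FPKM at E2C and 354 at L2C as deposited, but 1970.4 and 1425 with Rn45s left out and the rest rescaled.

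Among the untreated wild-type stages the D copies were instead concentrated in E2C. OboxD5 had 0.385 and 0.153 FPKM in FGO, 0.147 and 0.0693 FPKM in MII, 233 and 29.8 FPKM at E2C, 0.562, 7.13 and 2.38 FPKM at L2C, 6.96, 0.679 and 0.261 FPKM at 4C, and 0.234 and 0.14 FPKM in blastocysts. The E2C libraries stood above all others, but they differed strongly from each other. Summed over the 26 D copies the level was 3054 and 393 FPKM at E2C, against 1.17 and 1.40 FPKM in MII, and it was 11.2, 89.3 and 23.4 FPKM at L2C. The highest group mean fell at E2C for 25 D copies, at 3.39 to 131 FPKM, and OboxD25 stayed below 1 FPKM at every stage. L2C libraries with control siRNA, which were normalized separately, held more than these wild-type L2C libraries. Their summed D copies were at 1123, 608 and 1011 FPKM in parthenotes and at 172 FPKM in the 1 library from zygotes.

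Cluster B was close to 0 except for a few copies. OboxB2 was listed at 0 in wild-type oocytes and had 21.8 and 2.24 FPKM at E2C, 13.0, 13.1 and 10.1 FPKM at L2C and 8.83, 5.03 and 1.76 FPKM at 4C. OboxB21 reached 2.98, 1.88 and 1.46 FPKM at L2C. The other 23 B copies had group means below 1 FPKM at every wild-type stage.

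A copy was called changed where limma gave a Benjamini-Hochberg adjusted p under 0.05 over all 13989 genes tested in that table and a difference of at least 1 on the log2(FPKM + 1) scale, the scale of every log2 difference below. Of the copies, 34 were tested there, 7 of A, 3 of B and 24 of D. From MII to E2C 31 copies rose, 6 of A, OboxB2 and all 24 tested D copies, where 2.09% of all genes were called higher. These 24 met the filter of at least 1 FPKM in at least 2 libraries in the E2C libraries themselves. Their full share is thus in part fixed by the filter, both in this rise and in the fall from E2C to L2C given below. OboxA7 rose by 3.05 (SE 0.49, adjusted p 4.98e-05), and OboxD5 by 6.26 (SE 0.72, adjusted p 1.09e-06). From E2C to L2C clusters A and D parted. All 24 tested D copies fell, with a median of -4.44 against 0.72 for all genes and 3.16% of genes called lower, with OboxD9 falling by 4.65 (SE 0.63, adjusted p 4.47e-06), while none of the 7 A copies was called and none had an unadjusted p under 0.05. OboxB21 rose by 1.44 (SE 0.31, adjusted p 0.000521), with 34.2% of genes called higher. From L2C to 4C 6 A copies fell, with 11.3% of genes called lower, and no D copy was called. OboxA10 fell by 3.40 (SE 0.44, adjusted p 1.17e-05), OboxA11 by 3.02, OboxA5 by 2.97 and OboxA9 by 2.79, and OboxA7 and OboxA8 were the others. From 4C to blastocyst 6 A copies, OboxB2 and OboxB21 were called lower, with 17.7% of genes, and OboxA5 fell by 3.35 to 0.0944 and 0.127 FPKM. Between MII and FGO limma called 0 copies, with 2 A copies lower at an unadjusted p under 0.05, where 25.1% of genes were called in either direction. Without FGO replicate 1 that count was 3.

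Likeness to the numbered genes was measured as the Pearson correlation of log2(FPKM + 1) over the 31 libraries of the same table, which share genotype and stage, and it is given as a description for the 34 tested copies. OboxA5, OboxA7, OboxA8, OboxA9 and OboxA10 were most like Obox3 (0.86 to 0.98, OboxA9 highest), a gene of 2-cell embryos. OboxA11 and OboxA13 were most like Obox5, an abundant oocyte transcript, at 0.91 and 0.64. OboxB2 was most like Obox4 at 0.76 and OboxB21 most like Obox6 at 0.93, while OboxB22 reached only 0.25, with Obox6. For all 24 D copies the closest numbered gene was Obox4, at 0.91 to 1.00. In libraries with at least 5 FPKM of Obox4, 16 D copies (OboxD4 to OboxD6 and OboxD8 to OboxD20) had median ratios to Obox4 of 0.515 to 1.19, and the other 10 had median ratios of 0 to 0.161. The D copies thus fell into those read at about the Obox4 level and those read far below it, with a division at a ratio of 0.4 that was set after the values were seen.

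**Figure D2:**
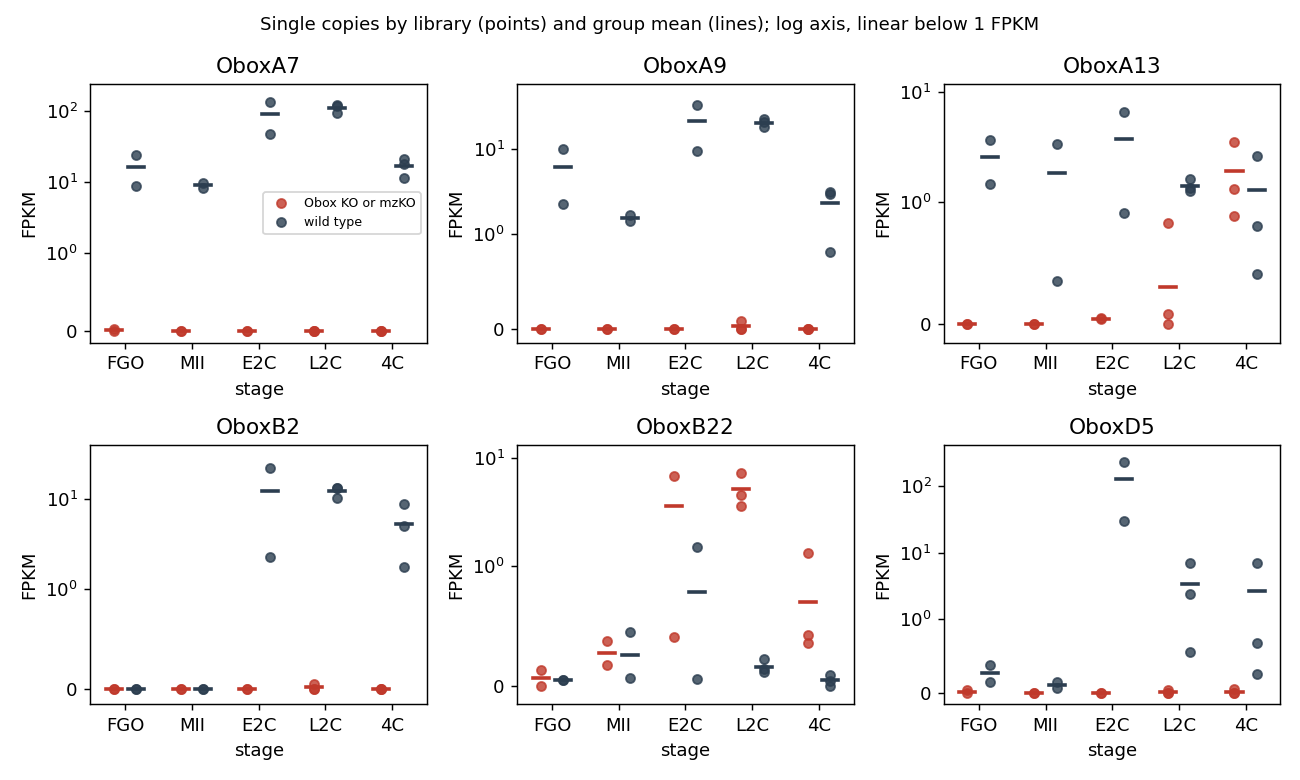
FPKM of 6 copies by stage on a log axis that is linear below 1 FPKM, with Obox KO or mzKO libraries in red left of wild-type libraries in dark blue, points for libraries and lines for group means. OboxA7, OboxA9, OboxB2 and OboxD5 lie near 0 in the knockout libraries from FGO to 4C, OboxA13 overlaps wild type at 4C, and OboxB22 is above wild type at L2C and 4C.

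In Obox KO oocytes the A copies were the ones that fell, the other letters being near 0 in wild-type oocytes. OboxA7 was at 0 and 0.024 FPKM in KO FGO, against 8.88 and 24.2 FPKM in wild-type FGO. The groups did not overlap, and OboxA7 fell by 3.96 (SE 0.49, adjusted p 2.64e-05). OboxA5, OboxA8, OboxA10 and OboxA11 fell as well, making 5 of 7 tested A copies, where 0.0643% of all genes were called lower. These 5 met the filter only with wild-type libraries counted, so their share, here and in MII eggs, is in part fixed by the filter. OboxA9, at 2.28 and 9.99 FPKM in wild type, and OboxA13 were not called. In KO MII eggs every A copy was listed at 0, and OboxA5, OboxA7, OboxA10 and OboxA11 were called lower (adjusted p 0.000729 to 0.0141), where 0.0572% of genes were. No B or D copy was called in either oocyte stage, and none of them had an unadjusted p under 0.05. The MII count was 1 without WT_MII replicate 1 and 2 without either KO library, and it was 0 with Rn45s left out and the rest rescaled. The FGO count was 0 when those 2 groups were fitted alone.

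At E2C the loss in mzKO embryos covered 3 letters. OboxA7 and OboxA10 were listed at 0 in both mzKO libraries, and OboxA5 had 0.0490 and 0 FPKM. OboxD5 was listed at 0 in both, against 233 and 29.8 FPKM in wild type, and OboxD9 had 0.121 and 0 FPKM. OboxB2 was listed at 0 in both, against 21.8 and 2.24 FPKM in wild type. Knockout and wild-type libraries did not overlap for any of these. In all, 31 of 34 tested copies were called lower, 6 of A, OboxB2 and all 24 of D, with adjusted p of the D copies from 2.42e-06 to 0.00079, where 0.4% of genes were called lower. The 24 D copies, the 6 A copies and OboxB2 met the filter only with wild-type libraries counted. Their share of the tested copies is in part fixed by the filter. OboxA5 fell by 5.83, and OboxD10 by 6.21 (SE 0.69, adjusted p 2.42e-06). OboxA13 had 0.0516 and 0.0442 FPKM in mzKO and 0.914 and 6.63 FPKM in wild type, and it was not called.

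At L2C 15 copies were lower and 1 was higher. The 6 A copies other than OboxA13 were called lower, OboxA7 being at 0 in all 3 mzKO libraries, against 93.4, 118 and 124 FPKM in wild type. OboxA10 fell by 6.20, with 0, 0 and 0.083 FPKM in mzKO embryos. OboxB2 fell by 3.67 (SE 0.43, adjusted p 7.55e-07). The D copies, by then low in wild type, gave 8 calls with adjusted p of 0.0374 to 0.0491, and 10.7% of genes were called lower. Those 8 calls rest on single libraries, since the total of called copies was 8 without any one of WT_L2C replicates 2 and 3 or mzKO_L2C replicates 1, 2 and 3. At 4C 7 copies were lower, 6 of A and OboxB2, where 10.4% of genes were. OboxA7 was listed at 0 in all 3 mzKO libraries, against 21.2, 11.3 and 18.0 FPKM in wild type, and OboxA5 fell by 3.43. Without WT_4C replicate 3 the 4C count was 18. The copies called lower at L2C and 4C met the filter only with wild-type libraries counted, so their share is in part fixed by the filter.

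3 copies departed from the loss at some stage. OboxB22 had 7.26, 3.55 and 4.51 FPKM in mzKO L2C, against 0.145, 0.226 and 0.119 FPKM in wild type. All mzKO libraries lay above all wild-type libraries, and OboxB22 rose by 2.35 (SE 0.39, adjusted p 9.07e-05), where 4.74% of genes were called higher. At E2C it had 6.70 and 0.411 FPKM in mzKO and 1.5 and 0.0583 FPKM in wild type, which overlapped. OboxB21 had 0.575, 0.947 and 0.847 FPKM in mzKO L2C and 2.98, 1.88 and 1.46 FPKM in wild type, with no overlap but no call. OboxA13 was lower in mzKO L2C, at 0.0898, 0 and 0.826 FPKM against 1.61, 1.36 and 1.27 FPKM in wild type, without overlap and without a call. It returned at 4C, at 3.49, 0.889 and 1.33 FPKM in mzKO and 2.62, 0.807 and 0.416 FPKM in wild type, with overlap. From the oocyte to 4C, 6 A, 2 B (OboxB2 and OboxB7) and 25 D copies reached 1 FPKM in wild type and stayed at or below 0.158 FPKM in every knockout library. Of all 13269 genes that reached 1 FPKM in wild type there, 5.92% stayed below 1 FPKM in every knockout library, as did these 33 of the 36 copies that reached it. OboxA13, OboxB21 and OboxB22 reached 1 FPKM in a knockout library, and the remaining 21 B copies and OboxD25 stayed below 1 FPKM in both. Whether a copy was removed with the knockout allele or was present and not read cannot be told apart from these RNA values. The series also holds libraries titled WGS_WT and WGS_homo (WGS being short for whole-genome sequencing), which were not analysed here.

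In the libraries labelled mzKO_BL, A copies were unequal between replicates. Replicate 1 had 9.58 FPKM of OboxA9, 2.07 of OboxA10, 0.958 of OboxA7, 0.604 of OboxA5 and 0.478 of OboxA8, and all were listed at 0 in replicate 2. Replicate 1 is the library with Obox3 at 59.7 FPKM. Against mzKO 4C, where it was listed at 0, OboxA9 was called higher (adjusted p 0.018), where 0.801% of genes were. The difference was 0.0 without mzKO_BL replicate 1, so the call rests on that library. OboxA13 and OboxB21 were called lower, with differences of -1.43 and -1.02, in a comparison where 60.7% of genes were called lower and the median gene differed by -1.52.

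A loss of A, D and OboxB2 signal was also read in Obox-- embryos, a separate set of libraries. The 2 kinds of knockout embryo differed in the numbered genes, since Obox5 was present in Obox-- E2C at 497, 272 and 273 FPKM. It had 256, 242 and 275 FPKM in Obox+- E2C, and 0.445 and 0.0201 FPKM in mzKO E2C. Obox1 and Obox2 were present in Obox-- E2C as well. OboxA7 was listed at 0 in all 7 Obox-- libraries, against 11.4, 7.57 and 18.0 FPKM in Obox+- E2C and 95.2, 64.9 and 70.7 FPKM in Obox+- L2C. OboxD5 was listed at 0 in all 7, against 3.80, 5.0 and 4.90 FPKM in Obox+- E2C and 0.117, 0.372 and 1.56 FPKM in Obox+- L2C. OboxB2 was listed at 0 in all 7, against 2.32, 5.09 and 4.34 FPKM in Obox+- E2C and 4.90, 3.66 and 9.19 FPKM in Obox+- L2C. For these copies no Obox-- library overlapped an Obox+- library. In all, 45 copies were above 0 in some Obox+- library and 12 in some Obox-- library, and 35 were above 0 in Obox+- while listed at 0 in every Obox-- library. Of all 18606 genes above 0 in some Obox+- library, 5.46% were listed at 0 in every Obox-- library. OboxA13 was the single A or D copy above 0 in Obox-- embryos.

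Of the 27 copies tested in these embryos, 23 were lower in Obox-- at E2C, 6 of A, OboxB2 and all 16 tested D copies, where 0.341% of genes were called lower. These 23 copies were listed at 0 in every Obox-- library, so they passed the filter through Obox+- libraries alone. Their share of the tested copies is thus in part fixed by the filter. Adjusted p was 4.45e-06 for OboxA7 and 0.000155 for OboxD5. At L2C 7 were lower, 6 of A and OboxB2, where 0.401% of genes were, with an adjusted p of 1.47e-10 for OboxA7 and 3.54e-05 for OboxB2. No D copy was called at L2C, although 12 of 16 had an unadjusted p under 0.05 (lowest adjusted p 0.263). OboxA13 had 2.05, 0.18 and 0.846 FPKM in Obox-- E2C and 1.31, 3.89, 0.895 and 4.38 FPKM in Obox-- L2C, against 0.638, 1.37 and 1.77 and 5.05, 1.79 and 2.75 FPKM in Obox+- embryos of those stages. OboxB21 had 1.11, 4.91, 2.75 and 4.50 FPKM in Obox-- L2C and 2.53, 1.98 and 5.67 FPKM in Obox+- L2C. Both copies overlapped between genotypes at L2C, unlike the A copies that carried the loss. OboxB22, higher in mzKO L2C, had 0, 0.137, 0.724 and 0.459 FPKM in Obox-- L2C and 0, 0.639 and 0.864 FPKM in Obox+- L2C, which overlapped.

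**Figure D3:**
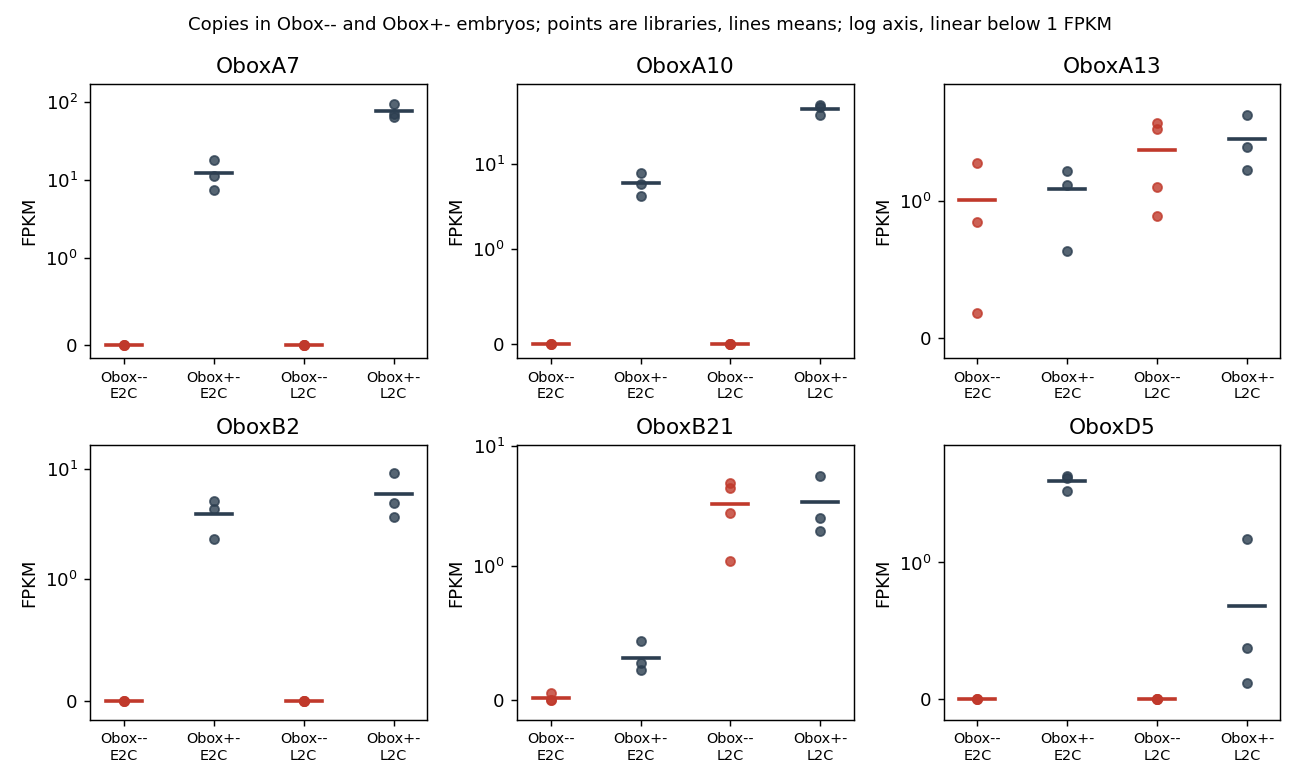
FPKM of 6 copies in Obox-- embryos (red) and Obox+- embryos (dark blue) at E2C and L2C, on a log axis that is linear below 1 FPKM, with points for libraries and lines for means. OboxA7, OboxA10, OboxB2 and OboxD5 are at 0 in every Obox-- library, and OboxA13 and OboxB21 overlap between genotypes at L2C.

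In mKO late 2-cell embryos the copies were largely present. OboxA7 had 74.8 and 44.9 FPKM in mKO and 129 and 62.6 FPKM in control embryos, which overlapped. OboxA10 had 48.1 and 42.3 FPKM in mKO and 136 and 107 FPKM in controls, which did not. OboxA10 fell by 1.40 (SE 0.34, adjusted p 0.0419) and was the single call among 26 tested copies, where 11.4% of genes were called lower. Obox5, by contrast, had 0.284 and 0.606 FPKM in mKO and 131 and 58.6 FPKM in controls. OboxD5 had 0.883 and 12.5 FPKM in mKO and 3.19 and 3.67 FPKM in controls. The OboxA10 call was lost with a pseudocount of 0.1, with no filter on low values and with Rn45s left out. The count depended on 1 library, since without mKO_L2C replicate 1 it was 19 copies, 16 of them higher. The 2-cell marker list summed to 714 FPKM in mKO replicate 2 and 164 FPKM in replicate 1, against 131 and 56.6 FPKM in controls, with Tcstv3 at 0 in all 4, and its part in the result was not tested. In the single mKO blastocyst library all D copies were listed at 0, and OboxD5 had 0.266 FPKM in its control.

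The siRNA groups were named for 1 numbered gene each, apart from siObox12mix. With siObox4 in zygotes, Obox4 itself had 3.38 and 10.7 FPKM at E2C, against 51.7 and 37.4 FPKM with control siRNA. OboxD5 had 8.44 and 14.6 FPKM with siObox4 and 58.1 and 48.7 FPKM with control siRNA, and OboxD9 had 6.05 and 12.5 FPKM and 53.9 and 45.1 FPKM. The groups did not overlap for these 3 genes. Yet limma called 0 copies, with a lowest adjusted p of 0.442, where 0.00776% of genes were called in either direction. At an unadjusted p under 0.05, 24 of the 25 tested D copies were lower, and the median D difference was -1.94 against -0.02 for all genes. OboxA7 had 45.7 and 17.01 FPKM with siObox4 and 44.9 and 15.1 FPKM with control siRNA, which overlapped. The siRNA sequence is not used here, and whether it also matches D copies was not tested.

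In parthenotes the D copies were higher after siObox5 by value but not by call. OboxD5 had 175 and 249 FPKM with siObox5, against 85.2, 44.4 and 78.0 FPKM with control siRNA, without overlap. The difference was 1.63 (SE 0.49, adjusted p 0.859), and 18 D copies had an unadjusted p under 0.05. OboxB22 had 4.31 and 4.24 FPKM with siObox5 and 0.606, 0.259 and 0.416 FPKM with control siRNA. It rose by 1.89 (SE 0.27, adjusted p 0.00831), one of 2 genes called higher among 12881 (0.0155%), and it is the copy that was also higher in mzKO L2C embryos. That call was lost when those 2 groups were fitted alone.

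With siObox12mix OboxA7 had 62.2 and 786 FPKM, against 34.1, 85.2 and 114 FPKM with control siRNA. Replicate 2 held the highest A value of the series and 222 FPKM of Obox3, while OboxD5 had 33.5 and 34.1 FPKM, below the 3 control libraries. With the mix Obox1 was at 0.638 and 0.991 FPKM and Obox2 at 1.05 and 0 FPKM, against 112 to 385 and 49.9 to 150 FPKM with control siRNA. limma called 0 copies, with 4 D copies lower and 2 A copies higher at an unadjusted p under 0.05 (0.0233% of genes called in either direction). With siObox7 OboxD5 had 68.3 and 191 FPKM, which overlapped the controls, and limma called 0 copies with 2 at an unadjusted p under 0.05 (0.00776% of genes called). With siObox6 and siObox8 at 4C limma called 0 copies and 0 had an unadjusted p under 0.05, where 0.0699% and 0% of genes were called. With siObox3, in 1 late 2-cell library and thus without a test, OboxA7 had 26.6 FPKM, against 135 FPKM with control siRNA, and Obox3 had 19.6 against 113 FPKM. OboxD5 had 9.04 and OboxB2 23.1 FPKM there, against 12.7 and 26.8 FPKM. Other numbered genes were lower too, Obox1 at 15.6, Obox2 at 17.6, Obox7 at 4.49 and Obox6 at 56.6 FPKM. With control siRNA these had 119, 91.0, 23.6 and 152.5 FPKM. Obox4 had 8.84 against 11.2 FPKM, Obox8 15.4 against 19.7 FPKM and Obox5 378 against 341 FPKM. Whether the siRNA also matches A copies or other numbered genes was not tested.

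In mESC, A copies were near 0 with GFP and high with Obox3. OboxA7 had 18.1, 23.1, 33.5 and 11.7 FPKM with Obox3, 3.55, 0.374, 1.84 and 3.02 FPKM with Obox5, and 0.61, 0, 0, 0.223 and 0 FPKM with GFP. OboxA9 had 147, 273, 253 and 86.4 FPKM with Obox3, 15.1, 0, 0.133 and 0 FPKM with Obox5, and 7.76, 0, 0, 0 and 0 FPKM with GFP. The values of 15.1 and 7.76 FPKM come from the libraries labelled Obox5 OE and GFP replicate 1, which held Obox3 at 99.5 and 37.2 FPKM. Obox3 libraries lay above all GFP libraries for both, whereas for Obox5 the groups overlapped. With Obox3, 6 of 6 tested A copies rose, where 2.82% of genes were called higher. These 6 met the filter only with Obox3 or Obox5 libraries counted, and OboxA13 did not meet it. Their full share is in part fixed by the filter. OboxA9 rose by 6.81 (SE 0.81, adjusted p 5.96e-05), OboxA10 by 4.87 (SE 0.39, adjusted p 7.67e-08) and OboxA7 by 4.21 (SE 0.36, adjusted p 1.64e-07). OboxA8 rose by 4.08 and OboxA5 by 3.47, and OboxA11 was called at 1.40, 1.38, 2.75 and 0.298 FPKM with Obox3 (adjusted p 0.0146), against 0 in all 5 GFP libraries. With Obox5, OboxA10 rose by 1.61 (SE 0.39, adjusted p 0.028) and OboxA5 by 1.30 (SE 0.33, adjusted p 0.0361), where 2.08% of genes were called higher. The Obox5 count ranged from 0 to 4 when single libraries were left out. No D copy was called with either gene. OboxD5 had 2.24, 5.08, 12.01 and 1.44 FPKM with Obox3, 0.681, 1.56, 5.78 and 6.40 FPKM with Obox5, and 1.56, 2.74, 16.1, 1.13 and 1.01 FPKM with GFP. The high GFP library, replicate 3, also had the highest sum of the 2-cell marker list among the GFP libraries, at 54.5 FPKM, and the part of the marker genes in this was not tested.

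**Figure D4:**
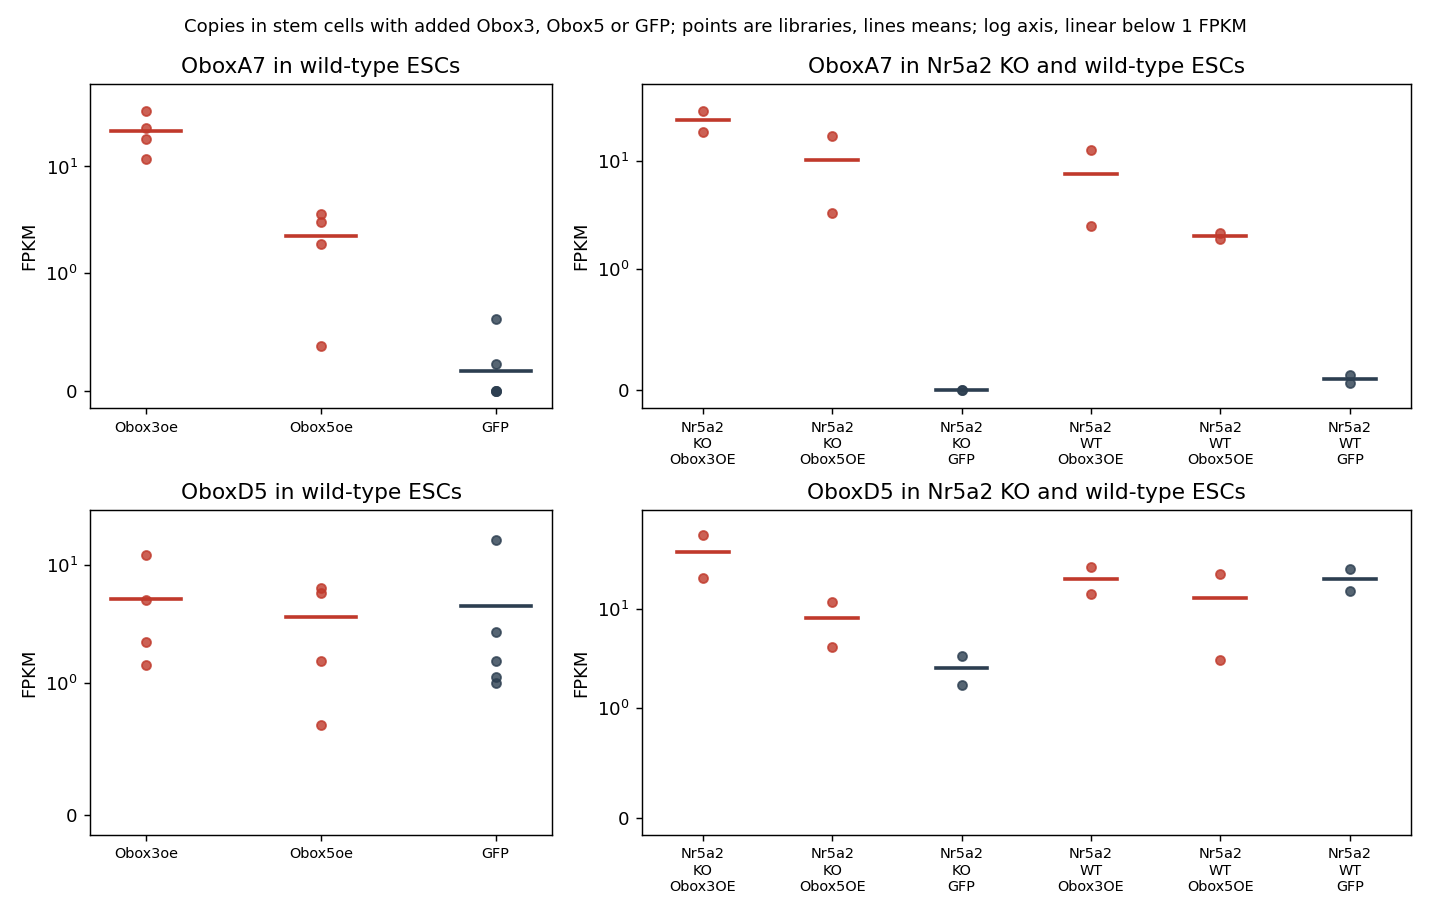
FPKM of OboxA7 (upper row) and OboxD5 (lower row) in wild-type mESC (left) and in Nr5a2 KO and wild-type mESC (right) with added Obox3, Obox5 or GFP, on a log axis that is linear below 1 FPKM, with points for libraries and lines for means. OboxA7 is near 0 with GFP and highest with Obox3 in each set, while OboxD5 with Obox3 lies above GFP in Nr5a2 KO cells and overlaps GFP in wild-type cells, a difference between genotypes that was not called.

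How A copies stood to Obox3 itself differed between cells given Obox3 and embryos. In the 8 mESC libraries with added Obox3 the ratio of OboxA7 to Obox3 was 0.00889 at its lowest, 0.0167 in the median and 0.0357 at its highest. In 36 oocyte and embryo libraries with at least 5 FPKM of Obox3 and none added, it was 1.01, 2.63 and 6.76. The ranges did not overlap. OboxA9 was read at a steadier share, with 0.105, 0.131 and 0.190 in those mESC libraries and 0.249, 0.607 and 1.30 in oocytes and embryos. In the 1 late 2-cell library injected with Obox3 mRNA the ratios lay between, at 0.452 for OboxA7 and 0.238 for OboxA9. The library labelled mzKO_BL replicate 1 had ratios of 0.0161 and 0.161, within the range of the mESC libraries with added Obox3. In the 3 mESC libraries without added Obox3 that reached 5 FPKM of it, the ratio of OboxA9 was 0.151 to 0.362. That of OboxA7 was 0.0164 and 0.0357 in the libraries labelled GFP and Obox5 OE replicate 1, and 2.23, within the range of oocytes and embryos, in Nr5a2 KO cells with Obox5 replicate 2. Whether reads of the added Obox3 were assigned to these copies was not tested, and these ratios are given without a test.

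**Figure D5:**
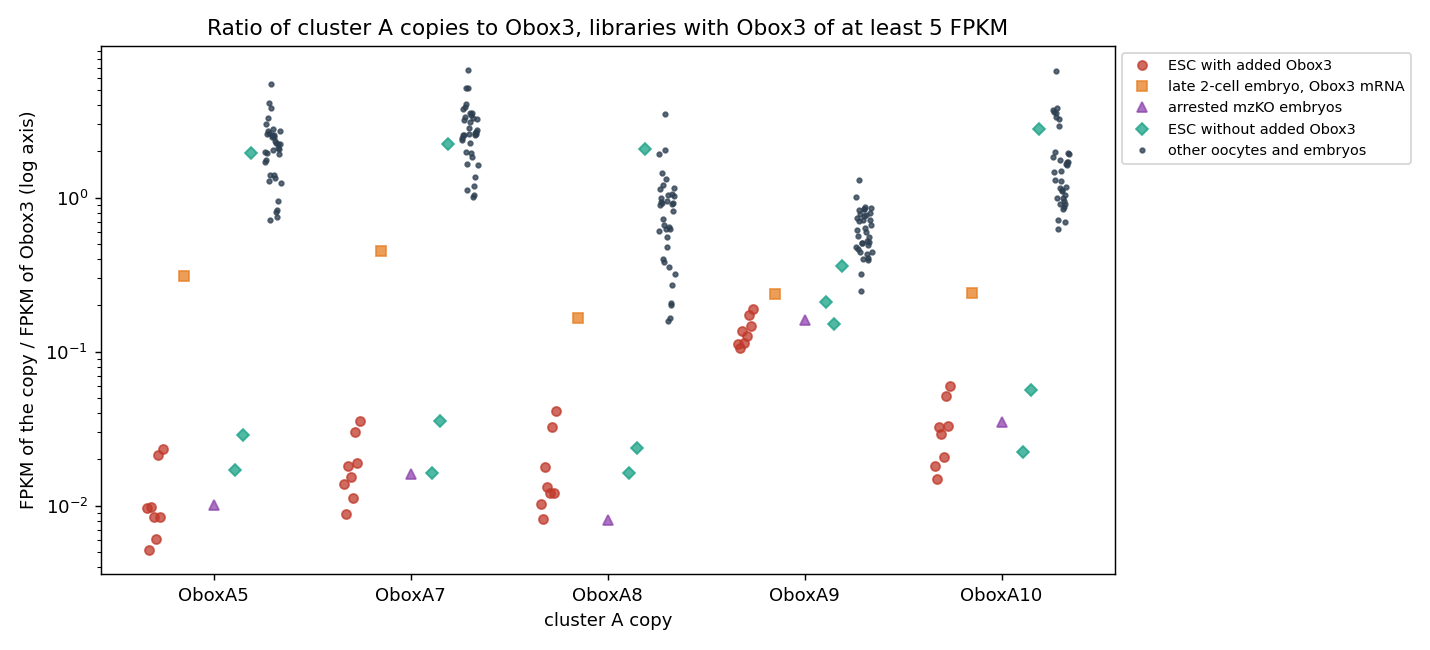
Ratio of each of 5 A copies to Obox3, on a log axis, in libraries with at least 5 FPKM of Obox3, with one symbol per library and kind of sample by colour. For OboxA7 the mESC libraries with added Obox3 lie at 0.00889 to 0.0357 and the other oocytes and embryos at 1.01 to 6.76, and for OboxA9 these ranges are closer, at 0.105 to 0.190 and 0.249 to 1.30.

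In Nr5a2 KO mESC with GFP the D copies were lower by value. OboxD5 had 3.33 and 1.70 FPKM in Nr5a2 KO cells with GFP, against 15.0 and 25.1 FPKM in wild-type cells with GFP, without overlap. limma called 0 copies (lowest adjusted p 0.123), with 19 D copies lower at an unadjusted p under 0.05, where 2.04% of genes were called in either direction. With those 2 groups fitted alone 20 copies were called.

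With added Obox3, A copies were called higher in both genotypes of that set, and D copies in the Nr5a2 KO cells. Whether reads of the added Obox3 were assigned to the A copies was not tested. In KO cells OboxD5 had 20.4 and 54.8 FPKM with Obox3, against 3.33 and 1.70 FPKM with GFP, and OboxA9 had 318 and 105 FPKM, against 0 in both GFP libraries. Both were without overlap. There 20 of 33 tested copies rose, 5 of A and 15 of D, where 3.29% of genes were called higher. In this set the A copies met the filter only through libraries with added Obox3 or Obox5, so their share is in part fixed by it. OboxD5 rose by 3.34 (SE 0.78, adjusted p 0.0374), and the 15 D calls had adjusted p of 0.0178 to 0.0472. The count was 4 and 5 without KO_GFP replicates 1 and 2, and 3 without KO_Obox3OE replicate 2. Of the 2-cell marker list, Zscan4d had 61.0 and 182 FPKM in KO cells with Obox3, against 38.4 and 5.11 FPKM with GFP. Zscan4c, Zfp352 and Usp17lc were also higher with Obox3 in these KO cells, and Tcstv3 was at 0. The part of these marker genes was not tested. In wild-type cells of the set OboxD5 had 13.9 and 26.2 FPKM with Obox3 and 15.0 and 25.1 FPKM with GFP, which overlapped. There OboxA9, at 19.5 and 67.2 FPKM with Obox3, rose by 5.18 (SE 0.60, adjusted p 0.000202) and OboxA10 was called too, where 0.765% of genes were. Tested directly, the difference in the Obox3 effect between Nr5a2 KO and wild-type cells was called for 0 copies by limma, with 21 at an unadjusted p under 0.05 and a lowest adjusted p of 0.63, where 0.102% of genes were called. The effects are thus not shown to differ, and this contrast was chosen after the values were seen.

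Added Obox5 gave fewer calls. In Nr5a2 KO cells OboxA7 had 3.32 and 17.01 FPKM with Obox5, against 0 in both GFP libraries, and OboxA7 (adjusted p 0.0371) and OboxA10 (adjusted p 0.0421) were called higher, where 0.926% of genes were. The count ranged from 0 to 5 when single libraries were left out, and it was 0 with no filter on low values and with those 2 groups fitted alone. In wild-type cells OboxA7 had 1.92 and 2.16 FPKM with Obox5 and 0.0558 and 0.128 FPKM with GFP, without overlap. limma called 0 copies there, with 3 at an unadjusted p under 0.05, where 0.663% of genes were called in either direction. The difference in the Obox5 effect between genotypes was called for 0 copies, with 0 at an unadjusted p under 0.05 and 0.0085% of genes called.

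A list of 21 other paired-class homeobox genes, 20 of them in the tables, was followed for comparison. In mzKO L2C embryos 4 of 15 tested were lower, Crxos and Duxbl1 to Duxbl3, where 10.7% of all genes were. Duxbl2 and Duxbl3 had equal values in each mzKO L2C library, at 4.86, 5.30 and 8.72 FPKM. The Duxbl rows may thus not be separate signals, here and in mESC. In mzKO 4C embryos 4 were higher, including Dux, a factor of the 2-cell programme, and Nobox, an oocyte factor, and Crxos was lower, where 14.2% of all genes were called higher and 10.4% lower. In mzKO E2C limma called 0 of the 15, where 0.4% of all genes were called lower. In mESC with Obox3 and with Obox5, which share their GFP controls, 4 of 9 tested rose, again Crxos and Duxbl1 to Duxbl3, where 2.82% and 2.08% of all genes were called higher.

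Embryos injected with Obox mRNA had 1 library per group and allow values only. At L2C OboxA7 had 40.4 FPKM with Obox1, 65.1 with Obox2, 32.4 with Obox3 and 80.2 with Obox5 mRNA, against 104 FPKM with H2O. OboxD5 had 1.88 FPKM with Obox1 mRNA, against 0.587 FPKM with H2O. In mzKO embryos with added Obox genes, summed D copies were at 0 FPKM in the library labelled Obox157OE, at 0.674 FPKM with Obox3, and at 0 FPKM with Obox4, the last labelled arrested 2-cell embryos. The D copies stayed near 0 in each mzKO library with added genes. Wild-type blastocysts had only 3.95 and 2.01 FPKM of summed D copies. The libraries labelled blastocysts therefore cannot show whether added genes bring D copies back.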

How the data were processed

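RNA-seq (Smart-seq2, per the labels' protocols) was used from 107 of 135 samples. The other assays were not analysed here. The deposited FPKM tables are per gene on mm9, and tools named in the submitters' processing notes include StringTie 2.1.2, HISAT2 2.2.1 and Trim Galore 0.6.6, without parameters. How reads that fit several copies were assigned by the authors is not given in the sources used here. Of 24143 rows, 27 with date-like names were left out. No whole reads could be recovered from the FPKM, so depth is unknown and no counting interval is given. The authors' tables were normalized separately and each test stayed within 1 table.

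Values on the log2(FPKM + 1) scale went into limma (version 3.58.1, under R 4.3.3, trend and robust variance) with all replicated groups of a table together, for genes of at least 1 FPKM in at least 2 libraries. Calls needed a Benjamini-Hochberg adjusted p under 0.05 and a log2 difference of at least 1. The fit was tested on simulated data. Copies that passed the filter may have passed only through the group where they were high. Copies named were the 3 highest of each letter in wild type and, in each comparison, the called ones or the 3 with the largest change per letter, of which not all are printed. OboxA9 and OboxA13 were also followed after their values were seen. Members, lists and tests were chosen with earlier results of these data known. Replicate numbers met the rule for pairing, 3 or more pairs each correlating above 0.1, in the wild-type mESC set alone (correlation of same-numbered deviations 0.276 to 0.674 for Obox3 and 0.414 to 0.637 for Obox5), and a replicate block there changed no count by more than 1.5 times. Alternatives were a pseudocount of 0.1, no filter, Rn45s left out with the rest rescaled to a fixed sum, a replicate block, only the 2 groups compared, and leaving out each library.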

Additional observations from a re-analysis of the deposited data

Results flagged for a closer look

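Of 39 groups of copy values tested for a library far from the others, 9 were picked out. Chance alone picks about 1 in 20 only where groups are independent and their values vary, which was not so here. The summed A and D groups contain single copies that were also tested. Among the GFP libraries of the mESC, OboxA8 and OboxA9 were detected in replicate 1 alone, so any value there would stand apart. The 9 groups picked out are therefore not set against that rate. 5 were in the library labelled GFP replicate 1 of the mESC, where summed A copies were at 10.4 FPKM, OboxA9 at 7.76, OboxA10 at 0.831, OboxA5 at 0.629 and OboxA8 at 0.609 FPKM. That library had Obox3 at 37.2 FPKM. GFP replicate 3 stood apart for summed D copies, at 214 FPKM, and for OboxD5, at 16.1 FPKM. The library labelled Obox5 OE replicate 1, with Obox3 at 99.5 FPKM, stood apart for OboxA9 at 15.1 FPKM and OboxA13 at 1.73 FPKM.

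The blastocyst library injected with Obox1 mRNA, which is in no test because it has no replicate, had summed D copies at 779 FPKM, against 7.86 FPKM with H2O. Its summed A copies were at 35.3 FPKM, against 0.169 FPKM, and OboxD5 was at 57.6 FPKM, against 0.652 FPKM. The 2-cell marker list summed to 402 FPKM there, against 0.24 FPKM with H2O, and the trophectoderm list to 374 FPKM, against 3166 FPKM. The part of these marker genes in the level of the copies was not tested. The other injected blastocyst libraries had summed D copies of 0 to 6.72 FPKM.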

How the results depend on the processing

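Counts of called copies kept within 1.5 times under 196 settings and moved under 76. Of single-copy values 1697 kept direction and call, 260 lost the call and 1 reversed, OboxA9 in mzKO_BL against mzKO 4C, with a log2 difference of 0.0 without mzKO_BL replicate 1 and 3.40 without replicate 2 (1.70 with both, against 4C libraries listed at 0). The causes were not tested. Below, each reported count stands in brackets after the alternative's.

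With a pseudocount of 0.1 the counts were 26 in mzKO L2C (16), 23 in mzKO 4C (7), 6 in mzKO_BL (3), 0 in mKO L2C (1), 0 with siObox5 (1), 5 in mESC with Obox5 (2), 5 and 3 in wild-type cells of the Nr5a2 set with Obox3 and Obox5 (2 and 0), and 6 in Nr5a2 KO cells with Obox5 (2). With no filter on low values they were 8 in mzKO L2C (16), 0 in mKO L2C (1), 0 in mESC with Obox5 (2), 1 in wild-type cells of the Nr5a2 set with Obox3 (2), 3 in Nr5a2 KO cells with Obox3 (20) and 0 with Obox5 (2). With Rn45s left out and rescaling they were 3 in KO FGO (5), 0 in KO MII (4), 26 in mzKO L2C, 21 in mzKO 4C, 6 in mzKO_BL, 0 in mKO L2C, 0 with siObox5, 4 in mESC with Obox5, and 4 each in wild-type cells of the Nr5a2 set with Obox3 and KO cells with Obox5. That rescaling moved the median of all genes by over 0.1 in 11 of 29 contrasts, by -0.22 to 0.64. With only the 2 groups compared they were 0 in KO FGO, 1 in mzKO_BL, 13 from 4C to blastocyst (8), 0 with siObox5, 4 in mESC with Obox5, 20 in Nr5a2 KO cells with GFP (0), 5 in wild-type cells with Obox3 and 0 in KO cells with Obox5.

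Outside the wild-type mESC set the libraries share only a number or have 2 pairs. A replicate block gave 1 copy in Nr5a2 KO cells with GFP, 4 in wild-type cells with Obox3 and 4 in KO cells with Obox5, and moved no other count by over 1.5 times.

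Leaving out 1 library at a time, where a lone library was assumed to vary like the other groups, gave 4 to 5 copies in KO FGO, 1 to 3 in KO MII, 23 to 32 in mzKO E2C, 8 to 18 in mzKO L2C, 5 to 18 in mzKO 4C, 1 to 3 in mzKO_BL, 0 to 3 from FGO to MII, 5 to 11 from 4C to blastocyst, 0 to 19 in mKO L2C, 0 to 1 with siObox5, 5 to 6 and 0 to 4 in mESC with Obox3 and Obox5, 1 to 5 in wild-type cells of the Nr5a2 set with Obox3, and 3 to 14 and 0 to 5 in Nr5a2 KO cells with Obox3 and Obox5. The ranges were 22 to 23 in Obox-- E2C and 7 to 7 in Obox-- L2C.

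Summed wild-type FPKM depended on scaling. Rescaled, the A copies averaged 361, 115, 1970.4, 1425, 198 and 0.457 FPKM in FGO, MII, E2C, L2C, 4C and blastocyst (91.2, 39.6, 298, 354, 45.1 and 0.155 as deposited), the D copies 10.6, 3.71, 6815.8, 177, 134 and 7.94 FPKM (3.08, 1.29, 1723, 41.3, 37.4 and 2.98), and the B copies 1.47, 4.97, 56.4, 61.3 and 26.0 FPKM from FGO to 4C. FPKM carry no depth, so the counting error of low values could not be estimated.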
